A study of Mus musculus with 29 samples.

Results

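A set of 10 genes of the stromal niche of the colon was followed across 6 mouse models of colitis. They are the Wnt ligands Wnt5a, Wnt2b and Wnt4, the R-spondins Rspo1 and Rspo3, the BMP antagonist Grem1, the BMP ligands Bmp2 and Bmp4, the secreted Wnt inhibitor Sfrp1 and the PDGF receptor Pdgfra. They were chosen by gene symbol, with earlier results of these data known, and are 10 of the 54532 genes counted. All 10 passed the filter on low counts, which 18616 genes passed. RNA of colon segments from 29 mice was sequenced after selection of poly(A) RNA, 1 library per mouse, and the comparison asks how each model differs from its untreated control.

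The wild-type controls (n = 3) were untreated Balb/C mice and served 3 models of the same strain. DSS mice (n = 3) drank 3% dextran sulphate sodium for 5 days, a detergent-like polymer that injures the epithelium, and were culled on day 10 after a return to water. DNBS mice (n = 3) received 3 mg of the hapten dinitrobenzene sulphonic acid in ethanol into the rectum, with no time in the labels. IL-10 blockade mice (n = 4) are labelled as given an IL10 blocking antibody, while the protocol names 750 µg of an antibody to the IL-10 receptor and culling by 4 weeks. TRUC mice (n = 4) were untreated Balb/C Tbx21-/- x Rag2-/- mice, which develop colitis spontaneously, and their controls were untreated Balb/C Rag2-/- mice (n = 3). Mice labelled C57BL/6 Rag1-/- were left untreated (n = 3), injected with 50 µg of agonistic anti-CD40 antibody and culled 7 days later (n = 3), or given sorted naive CD4+ T cells by transfer and culled 6 to 8 weeks later (T cell transfer, TCT, n = 3). Both Rag deletions remove mature B and T cells, so TRUC, anti-CD40 and their controls lack them, and the TCT recipients hold transferred T cells only. Age was not stated in the labels, though the identifier of TRUC mouse 4 is TRUC_8W, which is not explained. The study's methods give another strain and an earlier day of culling for the DSS mice, a knockout in place of the IL-10 antibody and earlier weeks of culling for TCT, and the recipients of T cells are called Rag2-/- in the protocol. The labels were followed throughout.

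Total counts ran from 10725564 to 14977094 per mouse. Reads of Rag1, Rag2 and Tbx21 were not below the wild-type range in the libraries whose labels call these genes deleted. Between 20 and 33 reads of Rag1 were counted in the TCT libraries, against 0 to 4 in the libraries labelled untreated Rag1-/-. The wild-type controls held 0 to 3 reads of Rag1 and 0 to 1 of Rag2, and the Rag2-/- controls 15 to 25 of Rag2. The libraries labelled Rag1-/- controls held 6 to 20 reads of Rag2 and those labelled anti-CD40 held 48 to 99, a range that overlaps the 57 to 94 of the TRUC libraries, while the TCT libraries held 0. Tbx21 had 26 to 52 reads in TRUC, 1 to 7 in the Rag2-/- controls and 2 to 5 in the wild-type controls. Il10, which the labels do not call deleted, had 61 to 111 in IL-10 blockade and 1 to 4 in the wild-type controls. A count over a whole gene can include exons outside the deleted stretch, so these values neither pass nor fail a library. Results of TCT and anti-CD40 are given against other control groups as well. DSS mouse 8 and IL-10 blockade mouse 4 differed most from the other mice of their groups over all genes, and their effect is given where they decide a value.

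The stem cells at the base of a colonic crypt depend on Wnt signals, which R-spondins strengthen by keeping Frizzled receptors on the cell surface. BMP signals have the opposite orientation: they favour differentiation toward the lumen, and antagonists such as gremlin 1 hold them off near the crypt base. Much of this supply comes from fibroblasts and related mesenchymal cells under the epithelium, many of which carry the PDGF receptor alpha, although Bmp2 is also made by mature epithelial cells. In RNA of whole colon, fewer cells of a type and less RNA per cell cannot be told apart.

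In untreated wild-type mice the BMP arm was the most abundant part of the niche. On the counts-per-million scale (CPM) divided by kilobases of exon (CPM per kb), Bmp2 ranged from 35.2 to 48.0, Grem1 from 21.6 to 23.7 and Bmp4 from 13.7 to 20.7. Sfrp1, at 12.5 to 14.05, overlapped Bmp4, and Pdgfra followed at 7.59 to 9.001. Rspo3 (1.92 to 2.48), Wnt2b (1.97 to 2.27), Wnt4 (1.47 to 2.00) and Wnt5a (1.74 to 1.88) lay in a cluster whose ranges overlap from each gene to the next. Rspo1 was lowest at 0.55 to 0.76, from 16 to 18 reads per mouse. The Rag2-/- controls had the same leading pair, with Bmp2 at 41.3 to 49.9 and Grem1 at 26.1 to 30.5. Libraries labelled untreated Rag1-/- had less Grem1 (9.46 to 18.9) and the lowest Rspo1, 0.08 to 0.31 from 2 to 7 reads.

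On the mouse genome (GRCm38, GENCODE M21), Grem1 (ENSMUSG00000074934) lies at chr2:113746164-113758646 on the minus strand, Pdgfra (ENSMUSG00000029231) at chr5:75152292-75198215 on the plus strand and Bmp4 (ENSMUSG00000021835) at chr14:46383520-46390669 on the minus strand. The 250 bases before the RefSeq start (GRCm38.p6) are shown for these 3 because Grem1 and Pdgfra both rose in DSS and Bmp4 did not. They are chr2:113758649-113758898, chr5:75152001-75152250 and chr14:46390670-46390919, read 5′ to 3′ on the strand of the gene. Capitals mark matches to any of 4 motifs, searched on both strands. The TATA box was searched as TATAAA and the GC box as GGGCGG. The TCF/LEF core, a loose form of the site that beta-catenin partners bind, was searched as CTTTGNT, and the AP-1 site as TGANTCA.
Grem1: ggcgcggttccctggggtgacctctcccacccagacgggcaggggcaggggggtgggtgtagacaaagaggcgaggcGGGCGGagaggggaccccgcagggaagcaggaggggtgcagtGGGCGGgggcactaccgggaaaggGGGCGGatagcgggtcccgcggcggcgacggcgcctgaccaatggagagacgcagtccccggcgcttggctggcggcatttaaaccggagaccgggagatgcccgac
Pdgfra: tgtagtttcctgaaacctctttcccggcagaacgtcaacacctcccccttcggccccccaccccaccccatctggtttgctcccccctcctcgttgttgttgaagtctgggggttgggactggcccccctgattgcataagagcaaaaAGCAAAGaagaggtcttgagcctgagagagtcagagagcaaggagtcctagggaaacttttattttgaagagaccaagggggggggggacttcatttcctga
Bmp4: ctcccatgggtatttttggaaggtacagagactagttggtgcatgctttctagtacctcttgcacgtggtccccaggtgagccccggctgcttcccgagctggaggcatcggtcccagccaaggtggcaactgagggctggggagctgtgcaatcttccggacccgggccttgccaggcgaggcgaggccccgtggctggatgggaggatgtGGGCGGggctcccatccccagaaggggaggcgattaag
Grem1 held 3 GC boxes, Bmp4 held 1 GC box, and Pdgfra held 1 TCF/LEF core match and no GC box. A GC box is present in 32.7% of 32851 mouse promoters of the same length and the TCF/LEF core in 16%, so none of these matches is rare. TATAAA (12.4% of promoters) and TGANTCA (6.75%) had no match in the 3 stretches. RefSeq promoters were at hand for 6 of the 10 genes, and Wnt2b and Wnt4 held 3 and 8 GC boxes, Rspo1 none. Wnt5a, Rspo3, Bmp2 and Sfrp1 had no entry.

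The models moved the niche in different directions. Adjusted p values are from edgeR's quasi-likelihood test in 1 fit of all 9 groups, adjusted by Benjamini-Hochberg over 18616 genes, and a gene is said to rise or fall where this value is under 0.05. DSS raised 7 of the 10 genes (17.7% of all genes tested rose) and lowered 0 (16.3% fell), with a median log2 fold change of 1.05 for the 10 beside 0.02 for all genes. IL-10 blockade raised 0 (27.2%) and lowered 4 (26.1%), with a median of −0.59 beside −0.01. TRUC raised 3 (22.4%) and lowered 3 (23.4%), with a median of −0.24 beside −0.03. In DNBS 2 genes rose (3.95%) and 0 fell (2.21%), and the median was 0.35 beside 0.01. TCT raised 3 (16.1%) and lowered 0 (14%), with a median of 0.35 beside 0. After anti-CD40, 0 rose (10.9%) and 1 fell (10.7%), with a median of −0.47 beside −0.03. The share of rises in DSS was well above that of all genes, while the falls in IL-10 blockade and both counts in TRUC were within 2 genes of it. Groups without overlap are common at these sizes. All mice of a model were above all controls for 15.6% (DNBS) to 28.8% (TRUC) of all genes. They were below all controls for 16.9% (DNBS) to 29.2% (TRUC).

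**Figure D1:**
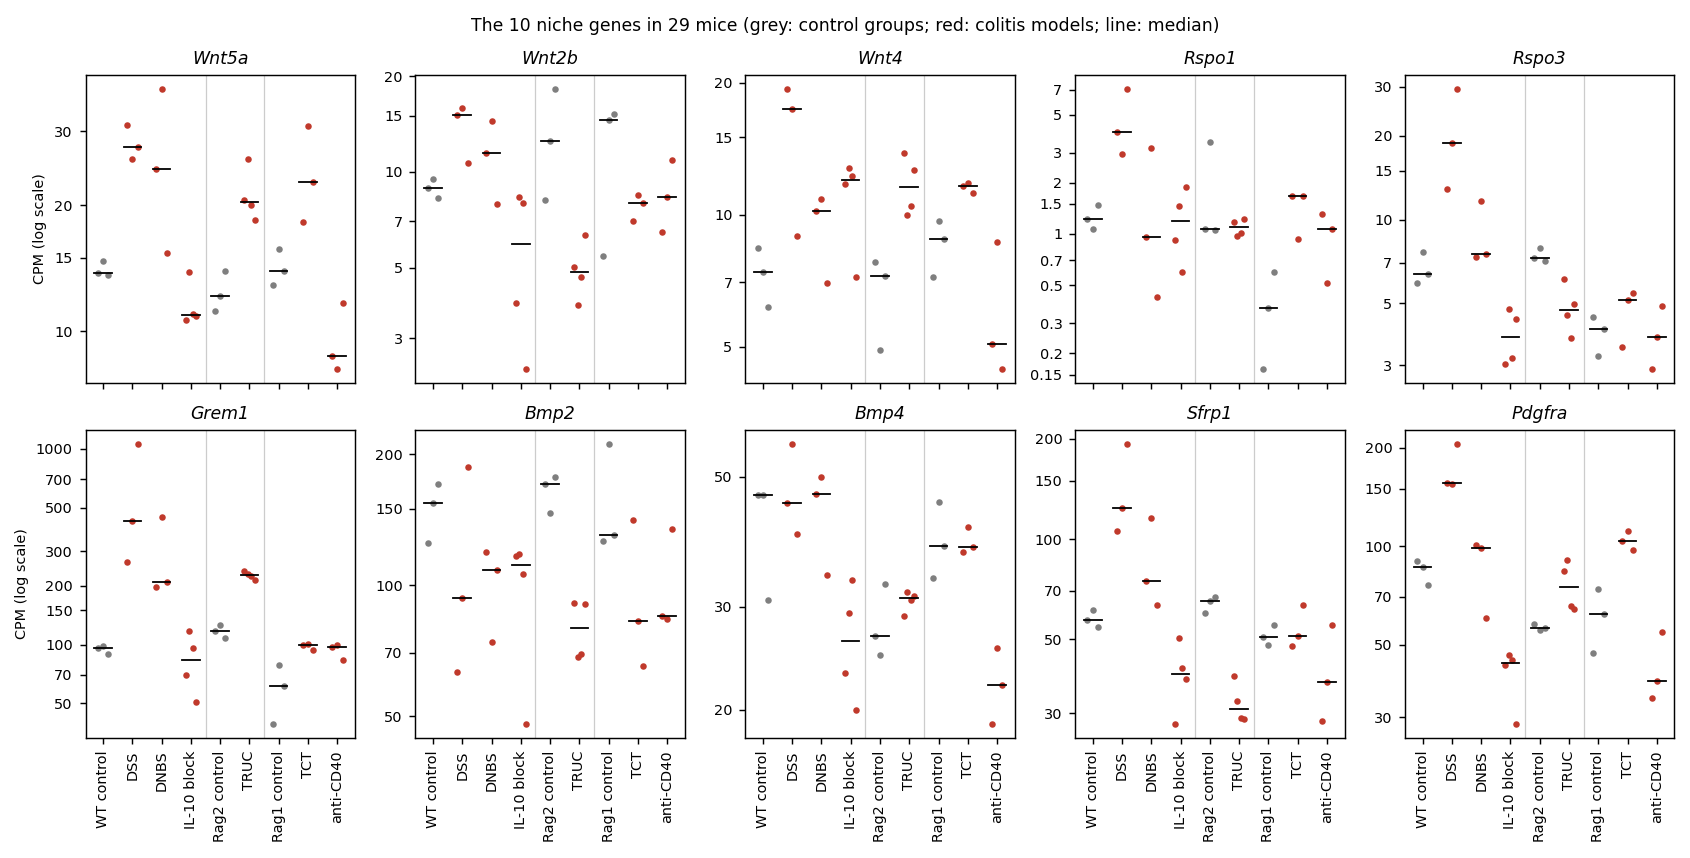
Level of each of the 10 genes (CPM, log axis) in every mouse of the 9 groups, with a line at the group median; grey points are untreated controls and red points colitis models. DSS mice lie above the wild-type controls for 8 of the 10 genes (25.9% of all genes tested), and Grem1 reaches 1060.2 CPM in 1 DSS mouse.

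Grem1, the secreted protein that binds and blocks BMP ligands, had the greatest change of the 10. It measured 95.9, 98.1 and 89.5 CPM in the wild-type controls and 264, 426 and 1060.2 CPM in the DSS mice. Every DSS mouse was above every control, and the log2 fold change was 2.63 ± 0.38 (SE, adjusted p = 2.34e-05), a 6.17-fold rise. DSS mouse 8 carried the highest value, and over the mice left out in turn the log2 fold change ranged from 1.87 to 2.97 and stayed past the threshold. DNBS mice had 196, 451 and 209.6 CPM, again all above the controls (log2 fold change 1.59 ± 0.36, adjusted p = 0.0131), but the call was lost without DNBS mouse 14, without wild-type control 1 and without wild-type control 2. TRUC mice had 238, 231, 225 and 213 CPM against 117, 126 and 108 in the Rag2-/- controls, 4 tightly grouped values above all 3 controls. That rise of 0.95 ± 0.34 on the log2 scale (adjusted p = 0.0258) was lost when any of the 3 controls was left out, with an adjusted p of up to 0.0802.

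The other 3 models did not pass the test for Grem1. IL-10 blockade mice spanned 51.1 to 118 CPM around the wild-type values (log2 fold change −0.17 ± 0.33). TCT mice had 99.8, 100.6 and 94.1 CPM and anti-CD40 mice 97.6, 99.98 and 83.5 CPM, both above the 39.2, 78.2 and 61.4 CPM of the libraries labelled Rag1-/- controls. Their log2 fold changes were 0.72 ± 0.36 (adjusted p = 0.139) and 0.65 ± 0.36 (adjusted p = 0.203). On the 2 groups alone both passed, with an adjusted p down to 0.0094 in TCT and 0.0115 after anti-CD40 over edgeR and DESeq2. Against the Rag2-/- controls the signs turned, to −0.25 in TCT and −0.32 in anti-CD40, neither past the threshold.

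Bmp2, a BMP ligand, was the 1 gene whose model effects were all negative, from −1.05 to −0.39 on the log2 scale. It fell in TRUC, from 171, 147 and 177 CPM in the Rag2-/- controls to 91.1, 68.4, 69.4 and 90.6 CPM. No mouse of one group reached the other, and the log2 fold change was −1.05 ± 0.32 (adjusted p = 0.0105). The IL-10 blockade mice, at 117, 118, 106 and 48.0 CPM, and the DNBS mice, at 119.5, 74.0 and 108.6 CPM, also lay below the 125, 155 and 171 CPM of the wild-type controls. Their log2 fold changes of −0.63 ± 0.32 (adjusted p = 0.103) and −0.58 ± 0.35 (adjusted p = 0.311) did not pass. DSS was mixed, at 63.3, 93.3 and 187 CPM, with mouse 8 above every control.

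Bmp4, the ligand more closely tied to mesenchyme, fell in IL-10 blockade and anti-CD40 and held within 0.20 of its control on the log2 scale in the other 4 models. After anti-CD40 it measured 18.9, 25.5 and 22.0 CPM against 33.6, 45.4 and 38.0 CPM, with no overlap (log2 fold change −0.82 ± 0.19, adjusted p = 0.00427). The fall depended on the control group: against the Rag2-/- controls, at 26.7, 24.8 and 32.8 CPM, it was −0.34 ± 0.19 (adjusted p = 0.193). IL-10 blockade mice had 23.1, 29.2, 33.3 and 19.97 CPM against 46.6, 46.5 and 30.8 CPM, overlapping by 1 control (log2 fold change −0.65 ± 0.18, adjusted p = 0.00382). The rise of Grem1 in DSS stood beside a Bmp4 difference of 0.20 ± 0.19 (adjusted p = 0.441) at 45.2, 57.0 and 39.9 CPM. Some reads of Bmp4 could belong to Gm15217, a gene on the opposite strand with overlapping exons, since the strand setting of the counting is not given.

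**Figure D2:**
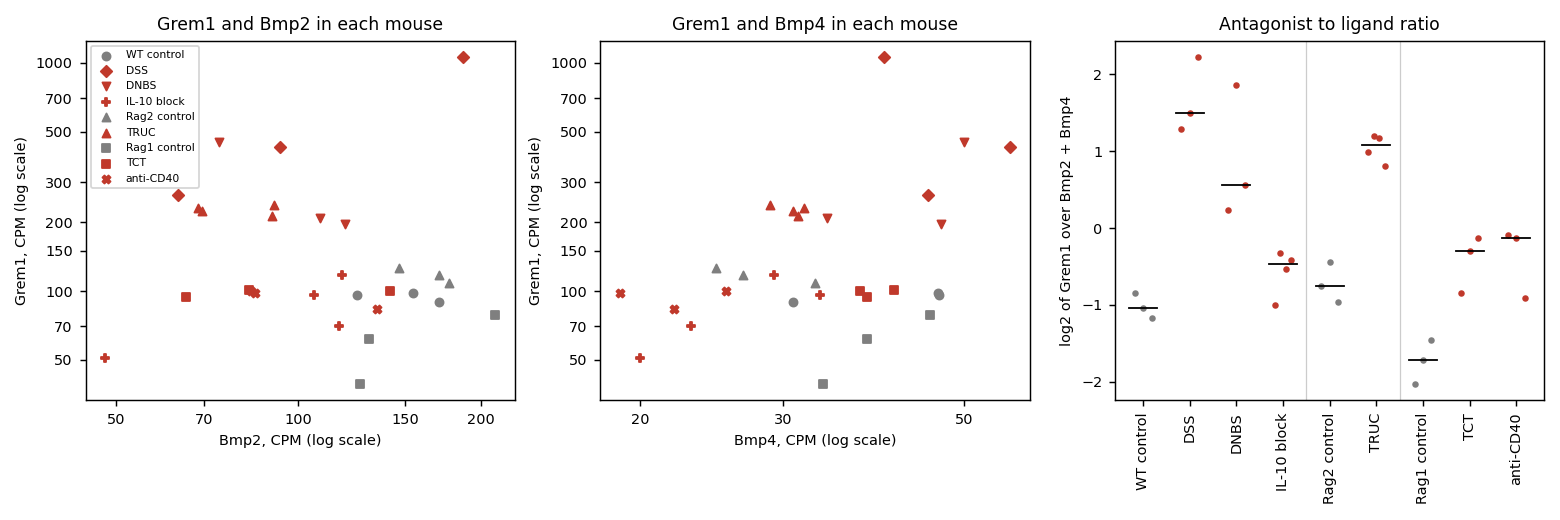
Grem1 against Bmp2 and against Bmp4 in each mouse (CPM, log axes; grey, controls; red, colitis models) and the log2 ratio of Grem1 to the sum of Bmp2 and Bmp4 in CPM by group, with lines at the medians. Every mouse of DSS, DNBS, TRUC, TCT and anti-CD40 is above its own controls in this ratio, and IL-10 blockade mice overlap theirs; the place of 0 depends on the scale.

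Wnt5a, the prototype of Wnt ligands that signal without beta-catenin, rose in 4 of the 6 models by similar amounts. DSS mice had 31.1, 25.8 and 27.5 CPM against 13.8, 14.7 and 13.6 CPM in the wild-type controls (log2 fold change 1.00 ± 0.23, adjusted p = 0.00165). TRUC mice had 20.6, 25.7, 20.1 and 18.4 CPM against 11.2, 12.2 and 13.9 CPM (0.77 ± 0.22, adjusted p = 0.00598). In both models the groups were apart, and leaving out any mouse kept the call. DNBS mice were spread at 24.4, 37.9 and 15.4 CPM (0.88 ± 0.23, adjusted p = 0.0242), and the call was lost without mouse 14, at a log2 fold change of 0.51, or without any of the 3 controls. TCT mice, at 18.3, 30.9 and 22.7 CPM, were above the 12.9, 15.7 and 13.9 CPM of their controls (0.76 ± 0.23, adjusted p = 0.0142), a call that went without TCT mouse 3 or without control 2. It was also made against the wild-type controls (0.77, adjusted p = 0.0132) and the Rag2-/- controls (0.95, adjusted p = 0.0028). Wnt5a was not raised in IL-10 blockade (10.6, 13.8, 10.98 and 10.9 CPM, −0.28 ± 0.22) or after anti-CD40 (8.74, 8.15 and 11.7 CPM, −0.57 ± 0.23, adjusted p = 0.0824), where all 3 mice were below their controls.

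Wnt4 rose in DSS and TRUC, where Wnt5a also rose. It measured 19.4, 17.4 and 8.96 CPM in DSS against 8.38, 7.39 and 6.15 CPM (1.06 ± 0.27, adjusted p = 0.00438). In TRUC it measured 13.8, 9.96, 10.4 and 12.6 CPM against 7.79, 4.90 and 7.25 CPM (0.82 ± 0.26, adjusted p = 0.0136), and the call was lost without Rag2-/- control 2 (adjusted p = 0.0855). TCT mice were tightly placed at 11.6, 11.8 and 11.2 CPM, all above their controls, with a log2 fold change of 0.43 ± 0.27 (adjusted p = 0.247). Against the Rag2-/- controls the TCT difference passed (0.80 ± 0.28, adjusted p = 0.0304), and against the wild-type controls it did not (0.66 ± 0.28, adjusted p = 0.0719). IL-10 blockade gave Wnt4 its sole positive value among the 10 genes, 0.59 ± 0.26 (adjusted p = 0.0595), with mouse 4 at 7.21 CPM and the others at 11.7 to 12.8 CPM. Without mouse 4 it passed at 0.74 (adjusted p = 0.0237). Up to 3.85% of the 50-base windows of Wnt4 exons occur in other genes, the highest share of the 10.

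Wnt2b, a mesenchymal ligand of the beta-catenin pathway, went the other way in TRUC. It fell from 8.15, 12.5 and 18.3 CPM in the Rag2-/- controls to 5.01, 3.83, 4.67 and 6.35 CPM, with no overlap (log2 fold change −1.38 ± 0.36, adjusted p = 0.00303). TRUC mice therefore had more Wnt5a and Wnt4 and less Wnt2b than their controls. In DSS all 3 mice (15.04, 15.9 and 10.6 CPM) were above the wild-type controls (8.92, 9.52 and 8.28 CPM), but the difference of 0.64 ± 0.37 did not pass (adjusted p = 0.192). IL-10 blockade mice fell into 3.88 and 2.40 CPM on one side and 8.31 and 7.98 CPM on the other (−0.66 ± 0.36, adjusted p = 0.127).

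Rspo3, the R-spondin that lymphatic endothelium and crypt-base fibroblasts supply, moved in opposite directions in DSS and IL-10 blockade. DSS mice had 12.8, 18.9 and 29.6 CPM against 5.94, 7.66 and 6.40 CPM, a 3.05-fold rise with no overlap (log2 fold change 1.61 ± 0.27, adjusted p = 0.000101). IL-10 blockade mice had 3.04, 4.78, 3.17 and 4.39 CPM, all below the same controls (−0.80 ± 0.26, adjusted p = 0.0126), and that call was lost without control 2 (adjusted p = 0.0564). TRUC mice, at 6.12, 4.54, 3.76 and 4.97 CPM, were below the 7.26, 7.88 and 7.10 CPM of their controls, and the value of −0.61 ± 0.26 was just outside the threshold (adjusted p = 0.0542). It passed under 4 of 7 other settings, which were upper quartile scaling, filterByExpr and both tools on the 2 groups alone, and also without TRUC mouse 2. TCT and anti-CD40 differed little from the libraries labelled Rag1-/- controls (0.26 ± 0.28 and −0.01 ± 0.29), which at 3.24 to 4.46 CPM lay below both other control groups. Against the Rag2-/- controls, Rspo3 was lower after anti-CD40 (−0.93 ± 0.28, adjusted p = 0.0177).

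Rspo1 was the least abundant member, and its values rest on few reads. DSS mice had 3.97, 2.94 and 7.12 CPM (43 to 89 reads) against 1.22, 1.07 and 1.48 CPM, with no overlap (log2 fold change 1.89 ± 0.53, adjusted p = 0.00847). The call was lost without mouse 8 (adjusted p = 0.0649). TCT mice, at 1.66, 0.94 and 1.67 CPM, passed against controls of 0.16, 0.37 and 0.60 CPM (1.89 ± 0.67, adjusted p = 0.0342), a result lost in 4 of the 6 fits that left out 1 mouse. Against the wild-type controls the TCT value was 0.18 ± 0.57, and against the Rag2-/- controls it was −0.39 ± 0.56. After anti-CD40, at 1.32, 0.51 and 1.08 CPM, Rspo1 overlapped its controls (1.34 ± 0.69, adjusted p = 0.167).

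Single mice outside DSS reached the DSS range of Rspo1: DNBS mouse 14 at 3.18 CPM, with its 2 companions at 0.96 and 0.43 CPM, and Rag2-/- control 2 at 3.44 CPM, with the others at 1.06 CPM. Markers of mesothelium, the outer lining of the gut, were high in the same 2 mice. Their summed level (6 genes, among them Msln and Upk3b) was 89.3 CPM in DNBS mouse 14 and 22.7 CPM in Rag2-/- control 2, and 42.7, 17.2 and 43.7 CPM in the DSS mice, against 4.00 to 9.92 CPM in the wild-type controls. Rag2-/- control 4 (14.7 CPM) and DNBS mouse 11 (16.7 CPM) had raised mesothelial sums at an Rspo1 of 1.06 and 0.96 CPM. In DSS 5 of the 6 mesothelial genes rose (17.7% of all genes), and the part of mesothelium in the Rspo1 value was not tested.

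Sfrp1, a secreted Frizzled-like protein that binds Wnts, changed in 3 models and not in the same direction. DSS mice had 106, 124 and 193 CPM against 57.1, 61.4 and 54.6 CPM (1.29 ± 0.24, adjusted p = 0.000291), with no overlap. TRUC mice had 38.9, 32.7, 29.05 and 28.8 CPM against 60.0, 65.4 and 66.8 CPM, which also left the groups apart (−0.98 ± 0.22, adjusted p = 0.00106). IL-10 blockade mice, at 27.8, 50.3, 40.9 and 38.0 CPM, were all below the wild-type controls (−0.56 ± 0.22, adjusted p = 0.0385), though the call was lost in 6 of the 7 fits that left out 1 mouse. DNBS mice had 75.0, 115.6 and 63.5 CPM, all above those controls, without passing (0.55 ± 0.24, adjusted p = 0.152). After anti-CD40 Sfrp1 was lower only against the Rag2-/- controls (−0.67, adjusted p = 0.0451) and not against its own (−0.35 ± 0.24, adjusted p = 0.314).

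Pdgfra, the receptor that marks many subepithelial fibroblasts, followed the same contrast of DSS and IL-10 blockade. The wild-type controls had 90.2, 86.4 and 76.1 CPM, DSS mice 156, 154 and 205 CPM and IL-10 blockade mice 43.3, 46.5, 44.7 and 28.5 CPM. Both differences left the groups apart, at 1.03 ± 0.21 (adjusted p = 0.000565) and −1.05 ± 0.19 (adjusted p = 0.000113), and both calls were kept with any mouse left out. TCT mice had 103, 111 and 97.3 CPM against 47.2, 73.8 and 62.1 CPM (0.77 ± 0.21, adjusted p = 0.00662). That rise was also made against the Rag2-/- controls (0.88, adjusted p = 0.00228) but not against the wild-type controls (0.30, adjusted p = 0.273). TRUC mice, at 83.9, 90.4, 65.7 and 64.2 CPM, were above the 57.8, 55.3 and 56.3 CPM of their controls, at 0.43 ± 0.20 (adjusted p = 0.0751). DNBS differed by 0.04 ± 0.21. After anti-CD40, Pdgfra measured 34.2, 38.8 and 54.8 CPM, overlapping its controls (−0.52 ± 0.21, adjusted p = 0.0772), and the difference passed without anti-CD40 mouse 8 or without control 2. Exons of Pdgfra overlap those of Gm42802 and Gm42803, and those of Wnt5a and Rspo3 overlap Gm2670 and Gm48159, all on the opposite strand. Reads of these genes therefore carry the same doubt as those of Bmp4. Pdgfra exons also overlap Mir7025 on the same strand, where no strand setting separates the reads.

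**Figure D3:**
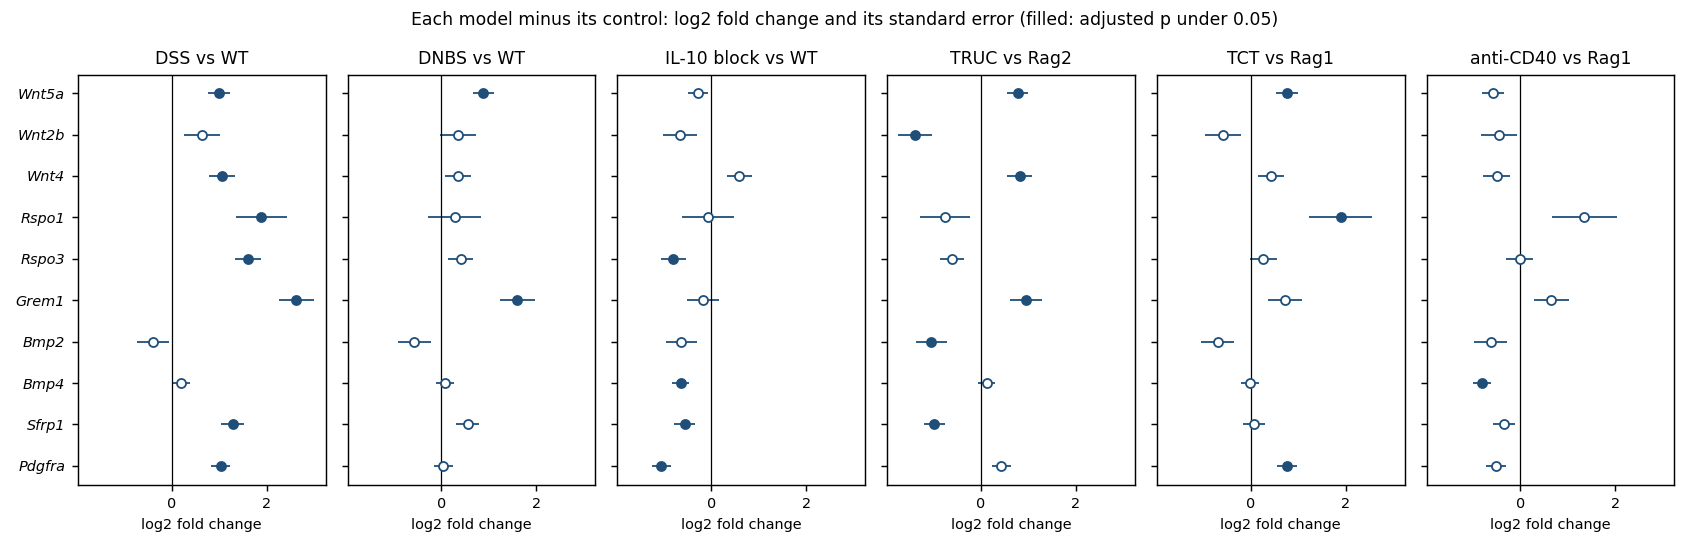
Log2 fold change of each of the 10 genes in 6 panels, 1 per model against its control, with bars of 1 standard error; filled points have an adjusted p under 0.05. Points are mostly right of 0 in DSS, mostly left of 0 in IL-10 blockade, and on both sides in TRUC.

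Differences between models were tested directly. An F test of equal effects in the 6 models passed for 9 of the 10 genes (60.5% of all genes), with adjusted p values from 1.44e-07 for Pdgfra to 0.00759 for Wnt4. Bmp2 did not pass (adjusted p = 0.846). Without TCT and anti-CD40, whose controls are in doubt, 8 passed and Wnt4 did not (adjusted p = 0.122).

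The effect of each model was then set against the mean effect of the other 5. DSS stood above it for 8 genes (29.4% of all genes differed in either direction), by 1.88 ± 0.32 on the log2 scale for Grem1, 1.76 ± 0.24 for Rspo3 and 1.54 ± 0.21 for Sfrp1. Wnt2b was among the 8 (1.19 ± 0.34, adjusted p = 0.0108) although its own rise in DSS did not pass. IL-10 blockade stood below the mean of the others for 6 genes (29.9%), by −1.40 ± 0.19 for Pdgfra and −1.48 ± 0.32 for Grem1. Grem1 and Wnt5a were among the 6, although neither passed against the wild-type controls (−0.17 ± 0.33 and −0.28 ± 0.22). After anti-CD40, Bmp4, Wnt5a and Wnt4 were below it (2.01% of all genes). Of these, Wnt5a and Wnt4 did not pass against their own controls (adjusted p = 0.0824 and 0.209). Against the Rag2-/- controls Bmp4 (−0.34), Wnt5a (−0.38) and Wnt4 (−0.13) all missed the threshold. In TRUC Sfrp1 was below the mean of the other models (4.31%), in TCT Pdgfra was above it (10.0%), and in DNBS 0 genes differed (7.38%). The wild-type controls enter 3 of these effects and the libraries labelled Rag1-/- controls 2, so the 6 effects are not independent of each other.

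Genes that receive or shape the same signals were counted from lists, which were drawn up with earlier results of these data known. Of 15 Wnt receptors, 8 fell in TRUC and 0 rose (23.4% and 22.4% of all genes), and 8 fell and 1 rose in IL-10 blockade (26.1% and 27.2%). In DSS 5 fell and 2 rose (16.3% and 17.7%), in TCT 5 fell and 0 rose (14% and 16.1%), after anti-CD40 4 fell and 0 rose (10.7% and 10.9%), and in DNBS 0 fell and 1 rose (2.21% and 3.95%). The rises in DSS were near the share of all genes.

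Ror1, a receptor for Wnt5a, fell in 5 models, from −0.80 ± 0.25 in DSS to −1.73 ± 0.24 in IL-10 blockade, and was −0.55 ± 0.25 in DNBS. The DSS call was lost without mouse 5 or mouse 8 (−0.65 each), and those of TCT and anti-CD40 were also made against the other controls. Fzd8, a Frizzled receptor, fell in the same 5, from −0.49 after anti-CD40, a call lost without each of 4 single mice, to −0.88 in TCT. Fzd4, also on the list, fell in TRUC (−1.15), IL-10 blockade (−1.13), TCT (−1.22) and anti-CD40 (−1.36). Lrp6, of the same list, fell in TRUC (−0.78), DSS (−0.64), IL-10 blockade (−0.76) and TCT (−0.58). Leaving out any mouse kept these calls of Fzd4 and Lrp6. Ror2, the other Ror receptor of the list, rose in DSS, fell in TRUC and passed in no other model. Wls, which carries Wnts to the cell surface, fell in TRUC, IL-10 blockade, TCT and anti-CD40, by −0.85 in the last. Its TCT call was lost without each of 3 single mice. Of the 8 other Wnt ligands that could be tested, 5 fell and 0 rose in IL-10 blockade (26.1% and 27.2% of all genes).

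On the R-spondin side, Lgr5, the R-spondin receptor of crypt stem cells, fell in DSS from 11.4, 13.5 and 11.9 CPM to 3.71, 0.27 and 0.32 CPM (−3.04 ± 0.56, adjusted p = 0.000244). The mice with raised Rspo3 and Rspo1 therefore had little Lgr5, and the value ranged from −5.34 to −2.55 with a mouse left out. In IL-10 blockade it also fell (−1.21 ± 0.46, adjusted p = 0.0318), a call lost in 6 of the 7 fits that left out 1 mouse. Znrf3, the ligase that removes Frizzled receptors, fell in all models but DNBS, where it was −0.41 ± 0.19. The fall was lost in DSS without mouse 8 (−0.47) and after anti-CD40 against the Rag2-/- controls (−0.40 ± 0.19, adjusted p = 0.127). Against its own controls the anti-CD40 call was lost without each of 3 single mice. Rspo2, another R-spondin, passed in no model.

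Axin2, a general beta-catenin target, fell in TRUC (−1.35 ± 0.17) and was −0.41 ± 0.18 in DSS (adjusted p = 0.0778). Its falls in TCT (−1.08 ± 0.18) and anti-CD40 (−1.26 ± 0.18) depended in size on the libraries labelled Rag1-/- controls, which at 52.5 to 58.8 CPM were above the 21.05 to 28.2 CPM of the wild-type and the 33.5 to 38.4 CPM of the Rag2-/- controls. Against the Rag2-/- controls the values were −0.47 ± 0.18 (adjusted p = 0.0442) and −0.66 ± 0.18 (adjusted p = 0.00957), and TCT against the wild-type controls gave 0.14 ± 0.18 (adjusted p = 0.56). Rnf43, a ligase like Znrf3, fell in TRUC (−0.76 ± 0.12), and its falls in TCT (−0.48) and anti-CD40 (−0.43) had the same dependence. TCT was 0.10 ± 0.13 against the wild-type controls, and anti-CD40 was −0.33 ± 0.13 against the Rag2-/- controls (adjusted p = 0.0587). The anti-CD40 call of Rnf43 was also lost without anti-CD40 mouse 7 or without control 2 labelled Rag1-/-.

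Of 14 Wnt target genes, 7 rose and 1 fell in DSS (17.7% and 16.3% of all genes), while in TRUC 2 rose and 6 fell (22.4% and 23.4%). Cd44 measured 53.1, 57.2 and 188.5 CPM in DSS against 38.2, 42.8 and 39.9 CPM, a rise of 1.30 ± 0.32. Without mouse 8 that rise was 0.45 and the call was lost. Cd44 also rose in TRUC (0.92 ± 0.30) and TCT (0.98 ± 0.31). The TRUC call was lost without Rag2-/- control 1 or 2, and the TCT call without each of 3 single mice. Tcf7 rose by 1.12 ± 0.33, a call lost without wild-type control 1. Ascl2, a stem cell factor, measured 4.72, 0.41 and 0.72 CPM in DSS against 5.18, 6.59 and 6.81 CPM (−1.63 ± 0.48). That fall was −3.46 without mouse 5, and the call was lost without mouse 8. In TRUC Ascl2 fell by −2.50 ± 0.45 (adjusted p = 0.000119), and leaving out any mouse kept the call. It also fell in IL-10 blockade (−1.16 ± 0.44, adjusted p = 0.0298), a call lost without each of 3 single mice. Cd44 and Tcf7 are also expressed by leukocytes, of whose 10 markers 9 rose in DSS (17.7% of all genes). The sum of these markers was 2857 CPM in mouse 8 against 747 and 771 CPM. The part of leukocytes in the Cd44 and Tcf7 values was not tested. Sp5, another gene of the list, rose in IL-10 blockade (4.85 ± 0.93), DSS (3.05 ± 1.12) and TCT (2.84 ± 0.97). Its means there were only 1.01, 0.28 and 0.44 CPM. The DSS call of Sp5 was lost without each of 4 single mice. The TCT call was lost without each of 3 and against the Rag2-/- controls (1.65 ± 0.83).

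Inhibitors and antagonists of both pathways were counted in the same way. Of 7 secreted Wnt inhibitors besides Sfrp1, 4 rose in DSS (17.7% of all genes), which were Sfrp5, Sfrp4, Frzb and Dkk3, 5 fell in IL-10 blockade (26.1%) and 3 fell in TRUC (23.4%). Of 12 BMP antagonists besides Grem1, 6 rose in DSS (17.7%) and 0 fell (16.3%), and 1 rose (27.2%) and 6 fell (26.1%) in IL-10 blockade. In TRUC 1 rose (22.4%) and 4 fell (23.4%), near the shares of all genes. The Wnt inhibitor Dkk2 fell in TRUC (−1.51), IL-10 blockade (−1.97) and TCT (−1.90). Its calls in TRUC and TCT were each lost without 1 single mouse. The BMP antagonist Nbl1 fell in TRUC (−1.64), IL-10 blockade (−0.81) and anti-CD40 (−0.82). Its IL-10 blockade call was lost without wild-type control 4, and its anti-CD40 call without each of 4 single mice. Chrdl2, a chordin-like antagonist, rose from 1.52, 0.80 and 0.74 CPM to 13.3, 26.9 and 62.2 CPM in DSS (5.05 ± 0.58, adjusted p = 2.45e-06), and rose in DNBS (adjusted p = 0.00126) and IL-10 blockade (2.22 ± 0.55, adjusted p = 0.00178). Nog, the antagonist noggin, fell in TRUC (−2.06 ± 0.43), and in TCT it was −0.96 ± 0.47 against its own controls and lower only against the Rag2-/- controls (−1.79 ± 0.46, adjusted p = 0.00459).

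Among other BMP ligands, Bmp7 rose in TRUC (1.01 ± 0.24), DSS (0.86 ± 0.25), DNBS (1.08 ± 0.25) and TCT (1.11 ± 0.25), and the DNBS call was lost without mouse 14 (0.70) or any wild-type control. Of 8 BMP target genes, 1 rose and 4 fell in TRUC (22.4% and 23.4% of all genes). In DSS 0 rose and 3 fell (17.7% and 16.3%), and in IL-10 blockade 4 rose and 2 fell (27.2% and 26.1%). In TCT 1 rose and 1 fell (16.1% and 14%), and after anti-CD40 1 rose and 2 fell (10.9% and 10.7%). In DNBS 0 changed (3.95% rose and 2.21% fell). Id1, a direct target, rose in IL-10 blockade (adjusted p = 0.000103), TRUC (1.06 ± 0.27) and anti-CD40 (0.99 ± 0.28), the last not against the Rag2-/- controls (0.62 ± 0.28, adjusted p = 0.109). The anti-CD40 call of Id1 was also lost without each of 3 single mice. Hes1, a target that Notch also drives, went the other way and fell in TRUC (−0.95), DSS (−1.17), IL-10 blockade (−0.66) and TCT (−0.76). Id3 rose in IL-10 blockade (0.63). Smad6, also on this list, fell in TRUC (−0.85), DSS (−0.74) and anti-CD40 (−0.75). Its calls in DSS and anti-CD40 were each lost without any of 4 single mice, and the latter also against the Rag2-/- controls (−0.49 ± 0.25).

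Of 12 BMP receptors and Smads, 1 rose and 4 fell in TRUC (22.4% and 23.4% of all genes). In IL-10 blockade 2 rose and 4 fell (27.2% and 26.1%), and after anti-CD40 2 rose and 2 fell (10.9% and 10.7%). In TCT 0 rose and 2 fell (16.1% and 14%). In DSS 1 rose and 0 fell (17.7% and 16.3%), as in DNBS (3.95% and 2.21%). The 2 named Smads that carry BMP signals moved apart: Smad5 fell in TRUC (−0.56), IL-10 blockade (−0.94), TCT (−0.38) and anti-CD40 (−0.75), while Smad1 rose in TRUC (0.57), IL-10 blockade (0.50) and anti-CD40 (0.63). Each of these rises of Smad1, and the fall of Smad5 in TCT, was lost without 1 or more single mice. The receptor Acvr2a fell in TRUC (−0.28), IL-10 blockade (−0.34) and TCT (−0.35). Its TRUC call was lost without each of 3 single mice. Its TCT call was lost without each of 2 and against the wild-type controls (−0.25 ± 0.11). Eng, a co-receptor of endothelium, rose in DSS, DNBS and IL-10 blockade. The DNBS call was lost without mouse 14 (0.66), wild-type control 1 or wild-type control 2, and the IL-10 blockade call without each of 4 single mice. Of the PDGF ligands, Pdgfd fell in TRUC, IL-10 blockade and anti-CD40 and Pdgfb rose in DSS and TCT, and Pdgfrb passed in no model. The anti-CD40 call of Pdgfd was lost without anti-CD40 mouse 6 or mouse 7.

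**Figure D4:**
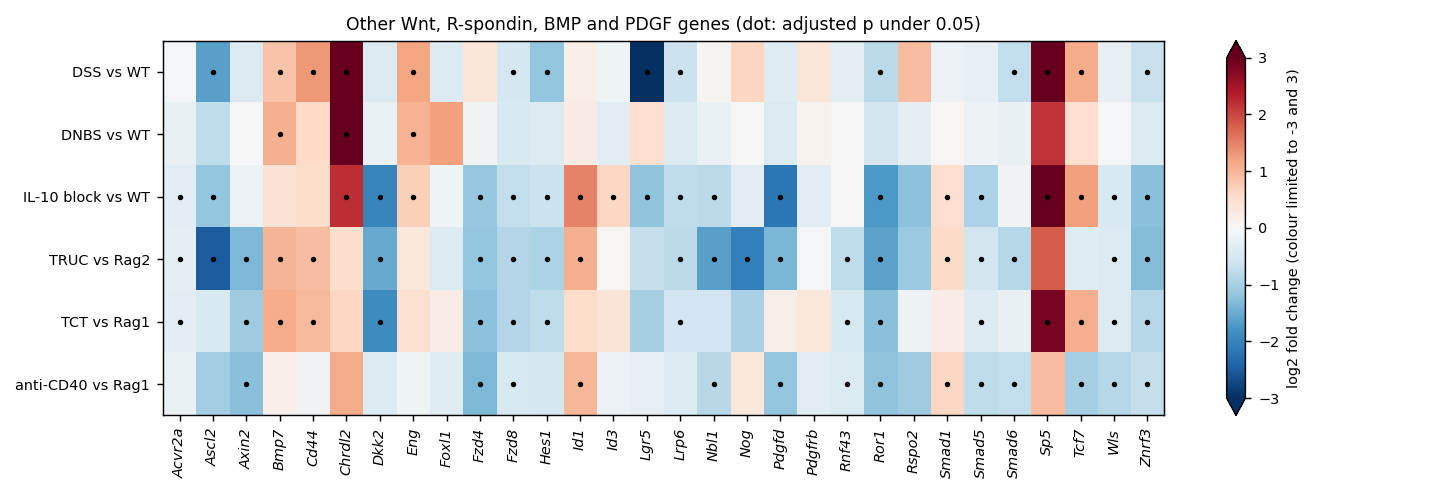
Log2 fold change of 30 other genes of the Wnt, R-spondin, BMP and PDGF pathways in 6 comparisons, as colour from −3 (blue) to 3 (red); a dot marks an adjusted p under 0.05. Chrdl2 is red in the top 3 rows and Ror1 and Znrf3 are blue in every row, without a dot in DNBS.

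Markers of stromal and other cells moved in the same libraries. Of 14 fibroblast genes, none at 0 in any mouse, 4 rose and 0 fell in DSS (17.7% and 16.3% of all genes). Their summed level in DSS was 2946 to 4214 CPM against 2363 to 2659 CPM in the wild-type controls. In IL-10 blockade 7 fell (26.1% of all genes), with a sum of 1370 to 2094 CPM. Of 10 smooth muscle genes, 9 fell in IL-10 blockade (26.1% of all genes) and 6 fell in TRUC (23.4%). The sum in IL-10 blockade was 3054 to 5779 CPM against 7798 to 9507 CPM in the wild-type controls. Of 10 epithelial genes, 9 rose in IL-10 blockade (27.2% of all genes), and in DSS 4 fell and 1 rose (16.3% and 17.7%). The low values of Rspo3, Sfrp1, Pdgfra and Bmp4 in IL-10 blockade stood in libraries with less fibroblast and muscle RNA and more epithelial RNA, and the part of this mixture in them was not tested.

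In TRUC the fibroblast list was near its control level, at 1786 to 2288 CPM against 1751 to 2236 CPM. Of its genes 1 rose and 2 fell (22.4% and 23.4% of all genes), while Wnt2b and Sfrp1 fell and Wnt5a rose. Of 10 genes of subepithelial, telocyte-type mesenchyme, 5 fell and 1 rose in TRUC (23.4% and 22.4% of all genes), at 105 to 128 CPM against 184 to 231 CPM. In IL-10 blockade 5 fell (26.1%), and in DSS 4 rose and 1 fell (17.7% and 16.3%). Foxl1, the defining gene of that list, passed in no model. After anti-CD40 4 fibroblast genes fell (10.7% of all genes), and in TCT 2 rose (16.1%). DNBS mouse 14, the highest DNBS mouse for Wnt5a, Grem1, Sfrp1 and Rspo1, also had the highest fibroblast sum of all 29 mice (5732 CPM against 3730 and 2384 in its companions). All 8 endothelial genes rose in DSS (17.7% of all genes).

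**Figure D5:**
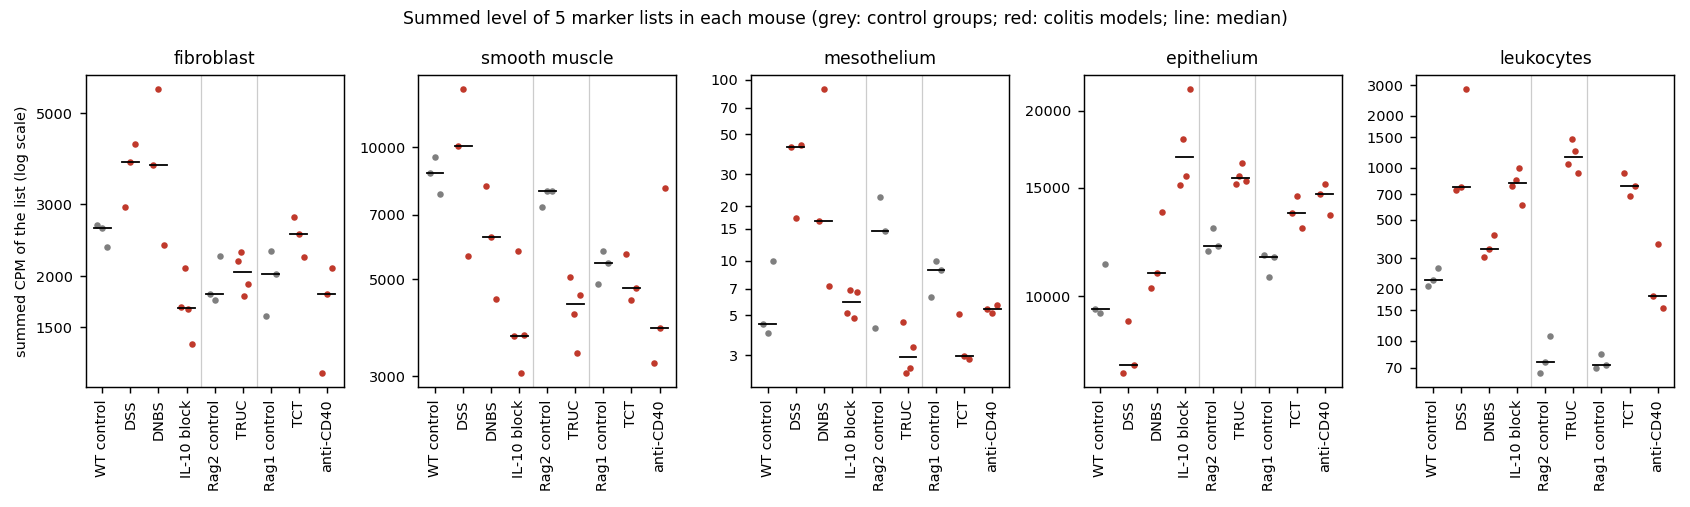
Summed CPM (log axis) of 5 marker lists in each mouse, with a line at the group median; grey points are controls and red points colitis models. Fibroblast and smooth muscle sums are lowest in some IL-10 blockade and anti-CD40 mice, and the mesothelium sum reaches 89.3 CPM in 1 DNBS mouse.

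Across the 29 mice each member was set beside the genes whose levels were most like its own. By Spearman's rank correlation of log2 CPM among 15416 genes, given as a description since mice of a group share treatment and tissue mixture, Pdgfra was closest to Mmp19 (0.95) and Wnt5a to Mmp2 (0.93), both matrix metalloproteinases. Sfrp1 was closest to Abcc9 (0.94), Bmp4 to Tmem119 (0.92) and Rspo3 to Cald1 (0.91), which encodes caldesmon. Lower values were reached by Wnt2b with Plcb1 (0.87), Bmp2 with Npc2 (0.84), Wnt4 with Prkch (0.83), Grem1 with Igfbp5 (0.83) and Rspo1 with Ctso (0.67). Among the 10 genes themselves, Wnt5a and Pdgfra (0.90) and Rspo3 and Sfrp1 (0.86) were the closest pairs, and Wnt4 and Bmp2 (−0.40) the most opposed.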

How the data were processed

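Colon RNA of 29 mice in 9 groups, taken from the labels, was analysed. The counts deposited by the authors are unnormalized whole numbers of reads, a column for each mouse. The submitters' processing notes name Trimmomatic, HISAT2, HTSeq and GRCm38, and the strand setting and annotation release are not given in the sources used here. The 92 spike-in rows summed to 0 and were left out. A symbol was found for 54409 of 54532 identifiers.

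Low genes were removed (mean count under 3), leaving 18616, and TMM-scaled counts entered edgeR 4.0.16 (glmQLFit and glmQLFTest, R 4.3.3) with 9 groups and no covariate. The standard error is the absolute log2 fold change over the root of F. Levels are TMM-scaled CPM, per kilobase of GENCODE M21 exon where stated. At these depths 3 counts, the most that a count of 0 allows, equal 0.179 to 0.314 CPM (counting error only). Promoters came from a RefSeq table (GRCm38.p6), read with Python 3.11.15.

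The 10 genes, lists and tests were chosen with earlier results of these data known. Also named are, from each list, up to 4 genes with the greatest median size of change among those past the threshold in 1 direction in at least 3 models, 8 further genes (Axin2, Lgr5, Rspo2, Nog, Id1, Id3, Foxl1 and Pdgfrb), and genes most correlated with each member. Ror2, Sfrp5, Sfrp4, Frzb, Dkk3, Pdgfb and Prss2 fall outside this rule and were named after their values were seen. The scripts were tested on simulated counts. Alternatives were RLE and upper quartile scaling, no filter, filterByExpr, edgeR or DESeq2 1.42.0 on 2 groups alone, a replicate block, other controls, and each mouse left out. Other controls and mice left out were added for the other pathway genes after the data were seen.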

Additional observations from a re-analysis of the deposited data

Results flagged for a closer look

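Within IL-10 blockade, mouse 2 stood apart for Wnt5a at 13.8 CPM beside 10.6, 10.98 and 10.9 CPM, a gap of 0.888 of the range of the group. Mouse 4 stood apart for Bmp2 at 48.0 CPM beside 106 to 118 CPM, a gap of 0.832 of the range. Chance gives a gap this wide in about 1 of 20 groups, and 20 groups of 4 mice were examined (10 genes in TRUC and IL-10 blockade).

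The effects of the 6 models differed for 9 of the 10 genes by the quasi-likelihood F test. The adjusted p was 1.44e-07 for Pdgfra (log2 fold changes from −1.05 in IL-10 blockade to 1.03 in DSS), 1.92e-06 for Rspo3 (−0.80 to 1.61 in the same models) and 3.21e-06 for Sfrp1 (−0.98 in TRUC to 1.29 in DSS). It was 1.27e-05 for Wnt5a (−0.57 after anti-CD40 to 1.00 in DSS), 2.07e-05 for Grem1 (−0.17 in IL-10 blockade to 2.63 in DSS) and 0.000231 for Bmp4 (−0.82 after anti-CD40 to 0.20 in DSS). It was 0.00324 for Rspo1 (−0.76 in TRUC to 1.89 in TCT). The TRUC value of Rspo1 was 0.05 without Rag2-/- control 2, and the TCT value was −0.39 against the Rag2-/- controls. The adjusted p was 0.00729 for Wnt2b (−1.38 in TRUC to 0.64 in DSS) and 0.00759 for Wnt4 (−0.50 after anti-CD40 to 1.06 in DSS).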

How the results depend on the processing

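The counts of genes that rose in DSS (7, and 6 to 7 with a mouse left out) and fell in TRUC (3, and 3 to 4) stayed within 1.5 times under every alternative run. The genes higher in DNBS went from 2 to 1 with edgeR on the 2 groups alone, and ranged from 0 to 2 with a mouse left out (0 without DNBS mouse 14, wild-type control 1 or wild-type control 2, and 1 without control 4). Those higher in IL-10 blockade went from 0 to 1 (Wnt4) with DESeq2 and ranged from 0 to 1 with a mouse left out (1 without IL-10 blockade mouse 4), and those lower (4) from 2 to 4 (2 without wild-type control 2). The 3 higher in TRUC ranged from 1 to 3 (1 without Rag2-/- control 2) and the 3 higher in TCT from 1 to 3 (1 without control 2 labelled Rag1-/-) with a mouse left out, and the latter went to 1 against the wild-type controls. The 0 lower in TCT became 0 to 1, with Bmp2 lower without TCT mouse 1. Those higher after anti-CD40 went from 0 to 1 (Grem1) with edgeR on the 2 groups alone and with DESeq2. Those lower (1) went to 2 against the Rag2-/- controls, to 2 with DESeq2, and ranged from 1 to 3 with a mouse left out (3 without anti-CD40 mouse 8, 2 without control 2). Rspo1 in TCT reversed against the Rag2-/- controls (−0.39). The cause of these shifts was not tested, beyond the smaller number of mice where 1 was left out.

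With the replicate block, TRUC had 4 genes higher (Pdgfra added) and 3 lower, and IL-10 blockade 0 and 4. In TRUC and IL-10 blockade, deviations of mice with the same number in model and control correlated between −0.052 and 0.056. Whether the numbers stand for anything else was not tested.

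Depth limits Rspo1 most, with 2 to 7 reads in the libraries labelled Rag1-/- controls. With 3 or 4 mice a group, a miss of the threshold does not show equal levels.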

Other observations

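A ratio of Grem1 to the sum of Bmp2 and Bmp4, chosen after the values of these genes were seen, set the antagonist beside its ligands in the same mouse. It is a ratio of CPM, so that its 0 has no meaning of its own and only differences between groups are read. Its log2 value was 1.28, 1.503 and 2.23 in DSS, 0.24, 1.86 and 0.56 in DNBS, and −0.84, −1.04 and −1.17 in the wild-type controls. TRUC mice had 0.99, 1.20, 1.17 and 0.81 against −0.75, −0.44 and −0.96 in the Rag2-/- controls. TCT (−0.84, −0.30 and −0.13) and anti-CD40 (−0.09, −0.13 and −0.91) were above the −2.03, −1.71 and −1.46 of the libraries labelled Rag1-/- controls and overlapped the Rag2-/- controls. IL-10 blockade, from −0.997 to −0.32, overlapped the wild-type controls.

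The mean difference was 2.69 in DSS, 1.90 in DNBS, 1.76 in TRUC, 1.36 after anti-CD40, 1.31 in TCT and 0.45 in IL-10 blockade. An exact two-sided permutation test gave p = 0.1 in the designs of 3 against 3, the smallest these allow, 0.0571 in TRUC, the smallest for 4 against 3, and 0.114 in IL-10 blockade. Adjusted over the 6 comparisons all were 0.114. These group sizes do not let the test reach 0.05, so it could not tell any model from its controls. All mice of a model were above all its controls in 5 of the 6.

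Adipose markers were lower in TRUC (5 of 5 genes) and TCT (4 of 5), and enteric glia and neuron markers were lower in TRUC (8 of 8 genes), IL-10 blockade (6 of 8) and anti-CD40 (3 of 8) and higher in DSS (4 of 8). Genes of interstitial cells of Cajal fell in TRUC and IL-10 blockade (3 of 3 each). Of all genes, 23.4% fell in TRUC, 26.1% in IL-10 blockade, 14% in TCT and 10.7% after anti-CD40, and 17.7% rose in DSS. Of 5 pancreatic genes only Prss2 had enough counts to be tested. It reached 4.27 CPM in TRUC and passed as higher in TRUC and in IL-10 blockade, whose controls were at 0 to 0.0885 CPM, and the other 4 had at most 14 reads in any mouse.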
